A study of Mus musculus with 6 samples.

Results

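The genes described here serve DNA replication and mitosis. They are 48 genes chosen by name, 28 that act in mitosis and 20 that act in DNA replication or in its control. Of these, 47 had a probe set that carries their symbol alone, 27 for mitosis and 20 for replication, among 19752 genes measured. Ccnb1 had no such probe set, so its expression is not analysed here and it enters only the promoter counts.

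The samples were skeletal muscle from the mdx strain, a mouse without dystrophin in which muscle fibres die and regrow amid infiltrating immune cells. A group of 3 samples had received anti-CD25 (clone PC61), an antibody against the interleukin-2 receptor alpha chain used to deplete regulatory T cells, and the control group of 3 samples had received rat IgG. Each antibody was injected 2 times, at days 17 and 20 of age. The question in the series' title is what the loss of regulatory T cells does to dystrophic muscle. Dissection 7 days later falls on day 27 according to the design text, whereas the labels state 6 weeks of age, or day 42. The antibody acts on every cell that carries CD25, and the tissue holds all cell types of the muscle together.

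Each sample was read on 1 array, and with 3 arrays a group precision is low. The samples of a group are taken as replicates because the labels list them separately; no label says that they are separate animals, so p-values cover the spread between these samples, part of which may be technical. The labels call all mice male, yet Xist, an RNA of female cells, read 11.77 to 11.94 log2 units on 4 arrays (rat IgG 1 and 2, anti-CD25 1 and 2) and 5.48 and 5.49 on the other 2 (rat IgG 3 and anti-CD25 3). Differences within each of these classes are therefore given beside the list means and for part of the genes. Muscle fibre markers were bright on every array, with the dimmest averaging 12.59. Foxp3, the transcription factor of regulatory T cells, measured 6.60, 6.69 and 6.43 with rat IgG and 6.42, 6.41 and 6.61 with anti-CD25, a difference of -0.092 (SE 0.10) with overlap. Within the high Xist arrays Foxp3 differed by -0.23 without overlap, and between the low Xist arrays by 0.18. Il2ra, which encodes CD25 and whose probe set is dim (percentile 22.5 of intensity among all genes), differed by -0.0049 (SE 0.094), by 0.094 within the high Xist arrays and by -0.20 between the low Xist arrays. In whole tissue, a change in the number of dividing cells and a change in RNA per dividing cell cannot be told apart.

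A dividing cell copies its DNA in S phase and separates the copies in mitosis. For S phase, the MCM helicase is loaded at origins and fired, and ribonucleotide reductase and thymidylate synthase supply the building blocks. Genes of this phase are largely switched on by E2F factors. Mitosis genes come on later, from promoters that typically carry a CHR element and CCAAT boxes. In dystrophic muscle the cycling cells include activated satellite cells, macrophages and stromal progenitors.

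Mitosis genes read higher with anti-CD25 in 26 of 27 cases and replication genes in 15 of 20, but no member passed the test. Over all 19752 genes, 41.1% read higher. The median difference, anti-CD25 minus rat IgG in log2 units throughout, was 0.28 for mitosis members and 0.083 for replication members, beside -0.026 for all genes. The shares depended on brightness. Above the 50th percentile of intensity, 5346 of 9876 genes read higher with a median of 0.011. There 20 of 20 mitosis members (median 0.28) and 15 of 17 replication members (median 0.10) did. With limma and adjustment over all genes, 0 of the 47 members and 0% of all genes passed at 0.05. At an unadjusted p under 0.05 limma gave 2 members, Kif2c and Plk1, both higher, or 4.26% of the members against 2.3% of all genes. That count depended on single arrays. In either direction, it became 13 mitosis and 4 replication members when rat IgG 3 was dropped, where 15.3% of all genes were at this threshold. It became 6 and 0 when rat IgG 1 was dropped (6.69% of all genes) and when anti-CD25 2 was (5.03%). It became 0 and 1 when rat IgG 2 was dropped (3.36%) and when anti-CD25 3 was (6.87%), and 0 and 0 when anti-CD25 1 was (3.75%). In the lower direction it gave 0 members against 3.98%. The 3 arrays of one treatment lay entirely above the other in 1 member, Cdc45 (2.13% of members against 4.28% of all genes), and entirely below in 0 members (7.46% of all genes).

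The members shared an order across arrays more than a difference between treatments. Relative to each gene's mean over the 6 arrays, the mitosis list averaged 0.033, -0.44 and 0.041 log2 units on the rat IgG arrays, in the order 1, 2, 3. On the anti-CD25 arrays, in the same order, it averaged 0.11, -0.061 and 0.32. Rat IgG 2 was therefore the lowest array and anti-CD25 3 the highest, and the remaining 4 lay between them with the treatments overlapping. All 27 mitosis members had their lowest value on rat IgG 2, as did 15 of 20 replication members and 20.4% of all genes. Among mitosis members 24 also had their highest value on anti-CD25 3, against 10 replication members. Both held together for 3.92% of all genes. These 2 arrays were singled out after the members' values were seen, so the counts are a description.

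**Figure D1:**
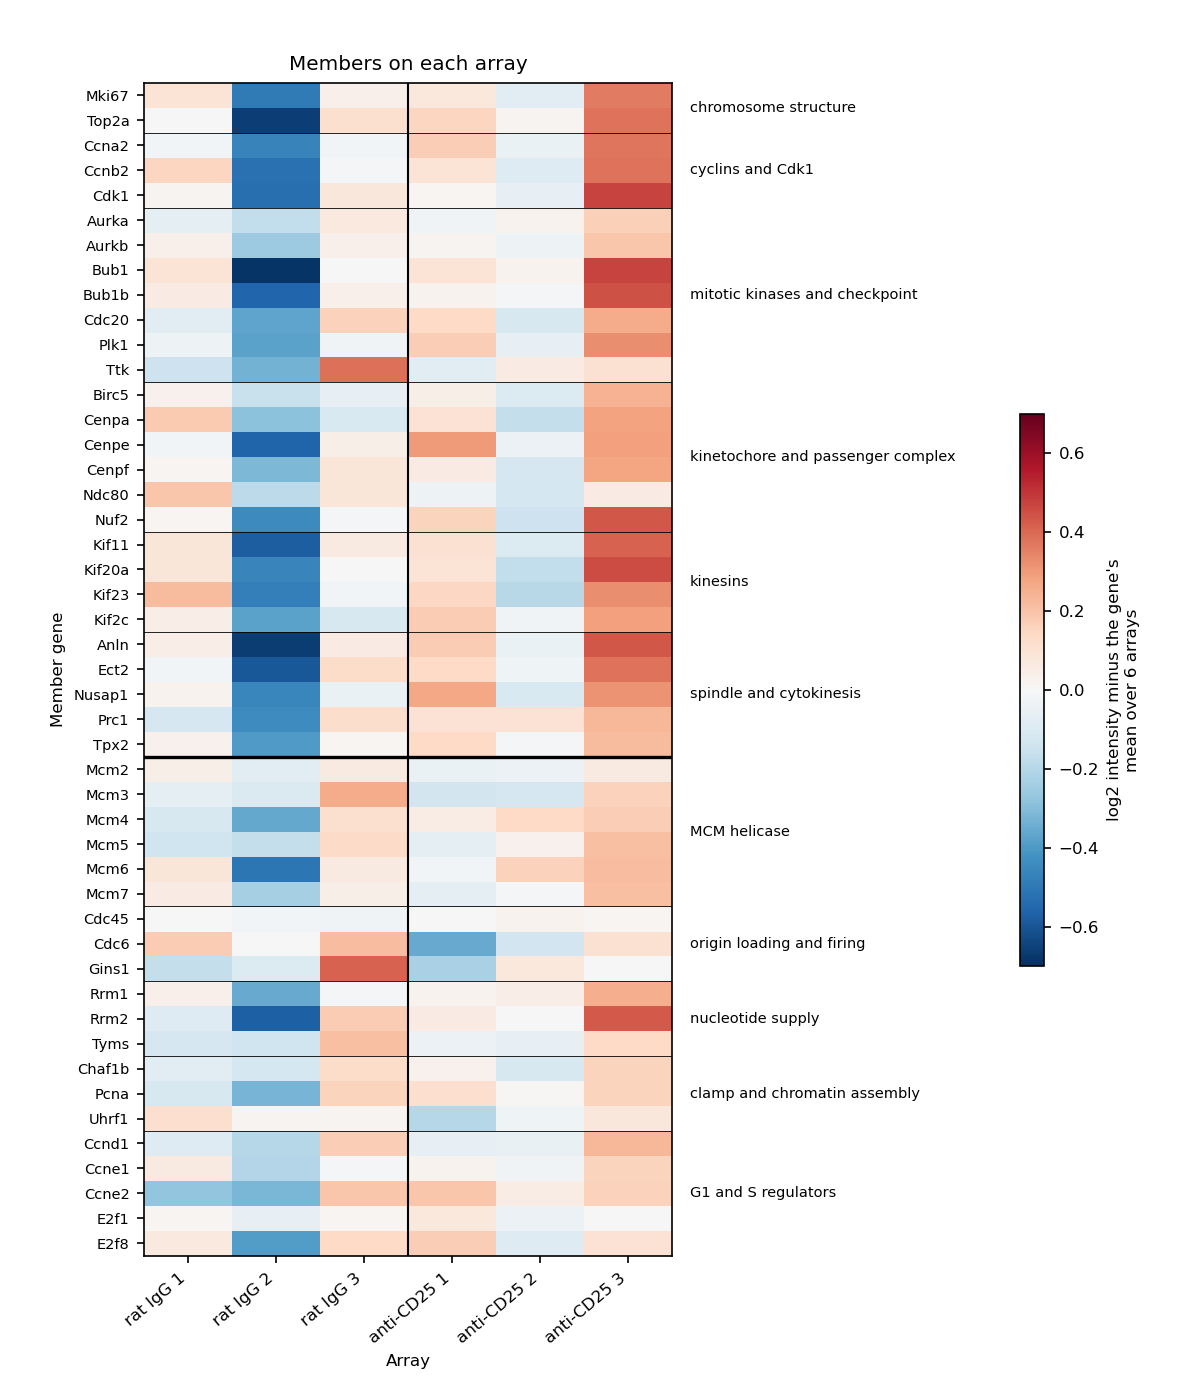
Each cell is a member's log2 intensity on 1 array minus its mean over the 6 arrays, with mitosis genes above the heavy line and replication genes below it, grouped by role; the vertical line parts rat IgG from anti-CD25. The rat IgG 2 column is the lowest for all 27 mitosis members, and anti-CD25 3 is the highest for 24 of them.

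The mitosis list differed by 0.24, from -0.12 ± 0.27 (SD, n = 3) to 0.12 ± 0.19 (SD, n = 3), and this rested in large part on those arrays. Dropping rat IgG 2 left 0.084, with 24 of 27 members higher against 8625 of all 19752 genes. Dropping anti-CD25 3 left 0.14, with 26 of 27 higher against 8300 of all genes. Within the 4 arrays with high Xist it was 0.22, and between the 2 with low Xist 0.28. The replication list differed by 0.079, from -0.039 ± 0.17 (SD, n = 3) to 0.039 ± 0.10 (SD, n = 3). Dropping rat IgG 2 turned it to -0.0071, with 9 of 20 members higher. Dropping anti-CD25 3 left 0.024, and dropping rat IgG 3 gave 0.16. Within the high Xist arrays it was 0.10 and between the low Xist arrays 0.027.

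The balance between mitosis and replication genes varied from array to array. The replication list averaged -0.029, -0.21 and 0.12 with rat IgG and -0.024, -0.0079 and 0.15 with anti-CD25, arrays in the order 1, 2, 3. It spanned 0.36 log2 units from its lowest to its highest array, against 0.75 for mitosis. Mitosis minus replication was 0.062, -0.22 and -0.082 with rat IgG and 0.13, -0.053 and 0.17 with anti-CD25. The mitosis list stood above the replication list most on anti-CD25 3 and below it most on rat IgG 2, and the treatments overlapped. The treatment means of this balance differed by 0.16, from -0.081 ± 0.14 (SD, n = 3) to 0.081 ± 0.12 (SD, n = 3), and by 0.091 without rat IgG 2. It differed by 0.12 within the high Xist arrays and by 0.25 between the low Xist arrays. No p is given for these list values, since the members were chosen with earlier results known.

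**Figure D2:**
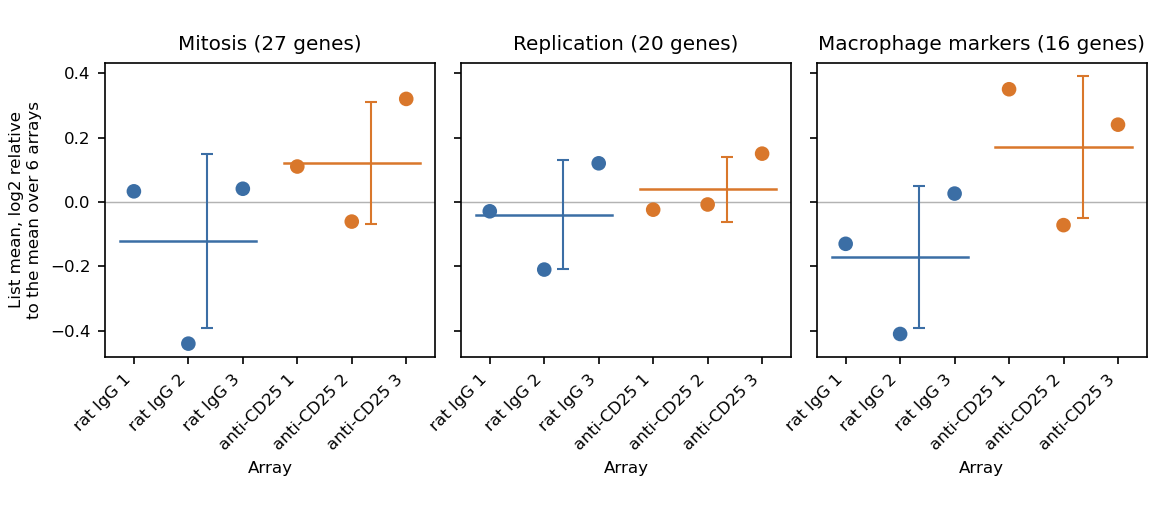
Points are the mean of a list on each array in log2 units relative to the mean over the 6 arrays, horizontal lines are treatment means and bars are ± 1 SD over 3 arrays, blue for rat IgG and orange for anti-CD25. Mitosis spans 0.75 log2 units and replication 0.36, and macrophage markers peak on anti-CD25 1 rather than anti-CD25 3.

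The promoters of the lists differ in sequence. The genes were chosen by name and not by promoter. The motifs searched, however, are those named above for each phase, so the contrast is a description and not independent support. RefSeq promoter windows of GRCm38.p6, from 250 bases before to 50 after a transcript start, were at hand for 40 of the 48 genes; Ccna2, Aurkb, Kif20a, Tpx2, Mcm4, Ccne2, Gins1 and Ccnd1 had no entry. A CHR motif (TTTGAA or TTCGAA, either strand) was found for 19 of 24 mitosis genes (79.2%) and 4 of 16 replication genes (25%), against 19% of genes on the arrays and 21.7% of all genes with a window. An E2F motif (TTTCCCGC, TTTGGCGC, TTTCGCGC or TTTGCCGC, either strand) was found for 1 mitosis gene, Cdk1 (4.17%), and 6 replication genes (37.5%), against 3.49% and 2.6%. A CCAAT box (CCAAT, either strand) was common to both, at 75% and 68.8% against 41.7% and 41.1%. No motif contains another, and a match is a description of the letters, not of a bound factor.

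Shown first are 30-base stretches around the CHR motif of mitosis genes, read on the strand that carries it, with the motif in capitals. They were picked after the matches were known, to show where the motif sits and what flanks it; the core is alike because it was searched for.
Mki67, chr7:135716460-135716489, minus strand: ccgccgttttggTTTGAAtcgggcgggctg
Top2a, chr11:99024195-99024224, plus strand: tccctagtttcaTTTGAAcctttatctagc
Cdk1, chr10:69352910-69352939, minus strand: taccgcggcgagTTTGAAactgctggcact
Plk1, chr7:122159453-122159482, plus strand: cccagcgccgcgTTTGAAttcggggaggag
Ccnb2, chr9:70421533-70421562, minus strand: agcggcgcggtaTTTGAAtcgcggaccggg
Bub1, chr2:127831828-127831857, minus strand: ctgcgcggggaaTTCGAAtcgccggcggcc
Ndc80, chr17:71526811-71526840, plus strand: aacccaaggcggTTTGAAttttaaagtttc
Of the mitosis members with a match, Bub1 alone has TTCGAA as the match shown. Most lay close to the start, with 18 of 24 mitosis genes holding a CHR within 100 bases before to 50 after it, against 8.09% of genes on the arrays. Ndc80 carries the motif but read -0.064, the lowest difference of the mitosis list.

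The E2F motifs of replication genes are shown in the same way, each an exact match to one of the motifs searched.
Mcm3, chr1:20820275-20820304, plus strand: acttcccaagtTTTCCCGCcacggaagttt
Mcm5, chr8:75109349-75109378, minus strand: aggctggacgtTTTGGCGCgaaagttcttg
Mcm6, chr1:128359734-128359763, minus strand: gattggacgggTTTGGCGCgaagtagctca
Mcm7, chr5:138171849-138171878, minus strand: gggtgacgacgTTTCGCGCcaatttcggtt
Uhrf1, chr17:56304117-56304146, plus strand: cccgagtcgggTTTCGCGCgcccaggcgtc
The 6 replication genes with an E2F motif, these and Cdc6, had a median difference of 0.013, and the 10 without had 0.074. Measured mitosis members with a CHR had a median of 0.28 (19 genes) and those without 0.31 (4 genes: Birc5, Cenpe, Nuf2 and Nusap1). Ccnb1, which was not measured, counts among the 24 mitosis promoters but not here. Within a list, the differences of genes with and without the motif covered overlapping ranges, from -0.26 to 0.24 and -0.017 to 0.32 for E2F and from -0.064 to 0.39 and 0.13 to 0.36 for CHR.

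Printed next are the 150 bases before the start for the members of each list with the smallest unadjusted p that have a window, with any CHR, E2F or CCAAT match in capitals.
Kif2c, chr4:117178773-117178922, minus strand: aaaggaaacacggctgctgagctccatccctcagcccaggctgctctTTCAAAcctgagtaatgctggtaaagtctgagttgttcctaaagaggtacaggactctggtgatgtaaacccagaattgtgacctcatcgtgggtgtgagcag
Plk1, chr7:122159285-122159434, plus strand: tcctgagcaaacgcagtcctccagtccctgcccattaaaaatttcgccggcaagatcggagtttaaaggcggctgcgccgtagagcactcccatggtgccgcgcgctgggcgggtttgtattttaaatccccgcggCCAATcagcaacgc
Cenpe, chr3:135212413-135212562, plus strand: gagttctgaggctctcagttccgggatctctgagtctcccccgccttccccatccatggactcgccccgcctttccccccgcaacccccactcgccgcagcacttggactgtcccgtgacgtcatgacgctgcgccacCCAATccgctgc
Cdc6, chr11:98908001-98908150, plus strand: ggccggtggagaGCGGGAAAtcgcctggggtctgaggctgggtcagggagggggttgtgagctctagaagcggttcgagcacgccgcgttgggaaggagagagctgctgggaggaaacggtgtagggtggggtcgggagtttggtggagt
Rrm1, chr7:102441545-102441694, plus strand: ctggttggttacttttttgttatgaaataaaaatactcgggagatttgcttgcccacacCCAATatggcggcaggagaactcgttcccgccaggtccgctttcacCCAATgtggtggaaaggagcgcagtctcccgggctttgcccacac
Rrm2, chr12:24708104-24708253, plus strand: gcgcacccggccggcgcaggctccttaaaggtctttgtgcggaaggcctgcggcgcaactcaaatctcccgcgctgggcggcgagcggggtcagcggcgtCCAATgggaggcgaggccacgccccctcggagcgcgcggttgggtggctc
In the Kif2c window the CHR is read on the opposite strand at position -103, counted from the start, and in Cdc6 the E2F motif is on the opposite strand at -138. In Plk1 the CHR shown above lies past the start, at 31, and the CCAAT box at -14. For Kif2c and Cdc6 the start of the window is not the outermost start of the gene in the gene table.

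Among mitosis members, Mki67 and Top2a act on the chromosomes themselves. Mki67, which coats mitotic chromosomes and is the usual proliferation marker, measured 9.45, 8.86 and 9.39 log2 units with rat IgG, arrays in the order 1, 2, 3 here and below. With anti-CD25 it measured 9.43, 9.28 and 9.72. Only rat IgG 2 stood low and anti-CD25 3 high, and the difference of 0.25 (SE 0.17, 95% interval -0.14 to 0.63) did not pass limma (adjusted p = 0.772). Top2a, the topoisomerase that untangles sister chromatids, measured 8.72, 8.06 and 8.83 with rat IgG and 8.87, 8.74 and 9.10 with anti-CD25. The difference was 0.37 (SE 0.19), with anti-CD25 2 below rat IgG 3. Mki67 differed by 0.20 within the high Xist arrays and by 0.33 between the low Xist arrays, and Top2a by 0.42 and 0.28. Both depended on rat IgG 2, and dropping it left 0.058 for Mki67 and 0.13 for Top2a. Dropping anti-CD25 3 left 0.12 for Mki67.

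The cyclins and their kinase drive entry into mitosis. Ccna2, the cyclin of S and G2 phase, measured 9.57, 9.12 and 9.57 with rat IgG and 9.76, 9.54 and 9.96 with anti-CD25. Only anti-CD25 2 overlapped the rat IgG arrays, and the difference of 0.33 (SE 0.15, 95% interval -0.0054 to 0.67) did not pass (limma, adjusted p = 0.75). Cdk1, the mitotic cyclin-dependent kinase, measured 8.85, 8.30 and 8.91 and then 8.84, 8.77 and 9.30, a difference of 0.28 (SE 0.19). Apart from rat IgG 2 and anti-CD25 3, its 4 other arrays lay within 8.77 and 8.91. The differences left when rat IgG 2 was dropped were 0.18 for Ccna2 and 0.091 for Cdk1, and dropping anti-CD25 3 left 0.12 for Cdk1. Ccnb2, a mitotic cyclin, differed by 0.25.

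Of the mitotic kinases and checkpoint proteins, 7 of 7 read higher. Plk1, which acts in spindle assembly and mitotic exit, measured 8.30, 7.96 and 8.31 with rat IgG and 8.51, 8.28 and 8.66 with anti-CD25. Anti-CD25 2 fell just below rat IgG 1 and 3, and the difference was 0.29 (SE 0.13, 95% interval 0.00042 to 0.59; limma, adjusted p = 0.75). It was 0.18 when rat IgG 2 was dropped. The checkpoint kinases Bub1 and Bub1b differed by 0.39, the highest value of the mitosis list, and 0.31. Aurka, Aurkb and Cdc20, the activator of the anaphase-promoting complex, differed by 0.11, 0.12 and 0.19. Ttk, the checkpoint kinase also called Mps1, stood apart, with its highest value of 6.61 on rat IgG 3 and a difference of 0.06. Its probe set is dim, at percentile 32.4 of intensity among all genes.

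Of the kinetochore and passenger complex genes, 5 of 6 read higher, all but Ndc80. Cenpe, the kinetochore motor, measured 7.09, 6.55 and 7.15 with rat IgG and 7.41, 7.07 and 7.40 with anti-CD25, a difference of 0.36 (SE 0.16, 95% interval -0.013 to 0.73). Anti-CD25 2 again fell among the control arrays, and dropping rat IgG 2 left 0.17. Nuf2 and Ndc80 encode partners in one kinetochore complex, and differed by 0.29 and -0.064. Ndc80 measured 7.14, 6.76 and 7.03 with rat IgG and 6.91, 6.82 and 7.00 with anti-CD25, so it shared the low value of rat IgG 2 but not the high value of anti-CD25 3. Cenpa, the centromeric histone, Cenpf and Birc5, the passenger protein survivin, differed by 0.14, 0.14 and 0.13.

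The kinesins and the genes of spindle and cytokinesis all read higher. Kif2c, a kinesin that depolymerises microtubules, measured 7.04, 6.62 and 6.88 with rat IgG and 7.17, 6.97 and 7.28 with anti-CD25. Only anti-CD25 2 lay below rat IgG 1, and the difference was 0.29 (SE 0.12, 95% interval 0.0099 to 0.58; limma, adjusted p = 0.75). Kif11, the motor that separates spindle poles, differed by 0.29, Kif20a by 0.25 and Kif23, which acts in cytokinesis, by 0.18. Prc1, which bundles midzone microtubules, measured 7.16, 6.84 and 7.40 and then 7.38, 7.38 and 7.51, a difference of 0.28 (SE 0.13). Here rat IgG 3 overlapped the anti-CD25 arrays. Prc1 differed by 0.37 within the high Xist arrays and by 0.10 between the low Xist arrays. The values for Kif2c and Prc1 were 0.18 and 0.14 when rat IgG 2 was dropped. Anln, Ect2 and Nusap1 differed by 0.38, 0.32 and 0.32, and Tpx2, an activator of Aurora A, by 0.24.

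**Figure D3:**
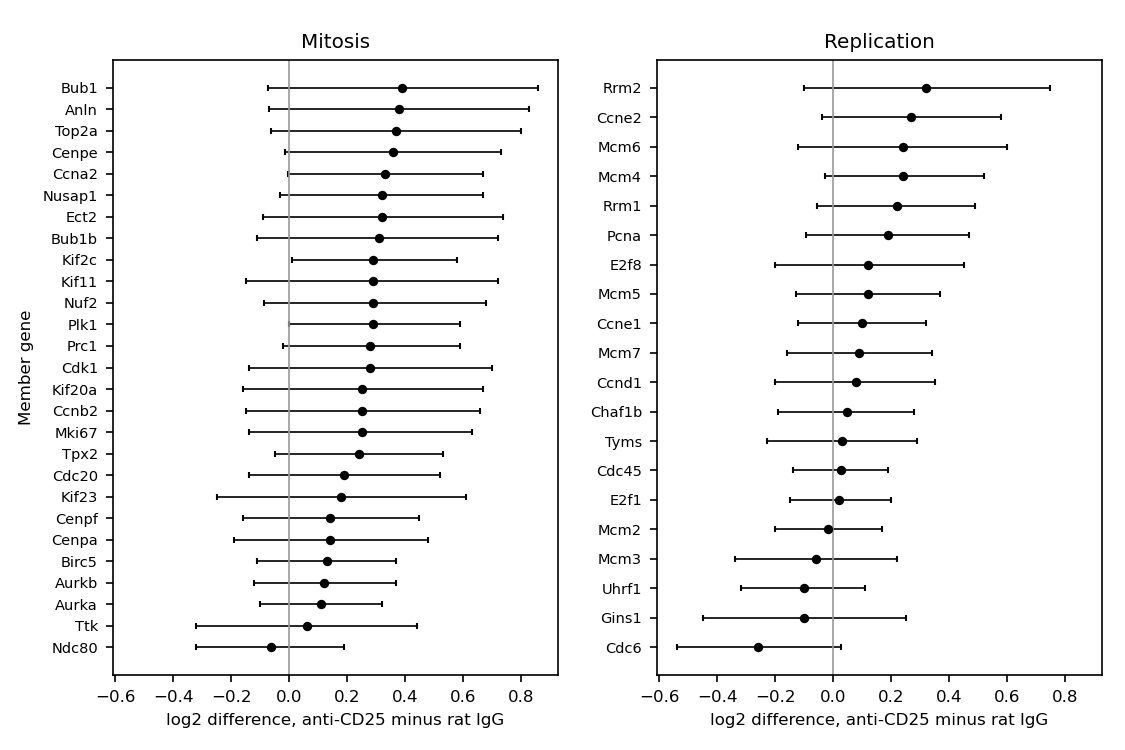
Points are each member's log2 difference, anti-CD25 minus rat IgG, with limma's 95% interval from 3 arrays a group, sorted within mitosis (left) and replication (right). Only the intervals of Kif2c and Plk1 lie above 0, and no member passed after adjustment over all genes.

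Of the MCM helicase subunits, 4 of 6 read higher. The 6 MCM genes differed by -0.017 (Mcm2), -0.061 (Mcm3), 0.24 (Mcm4), 0.12 (Mcm5), 0.24 (Mcm6) and 0.088 (Mcm7). Mcm4 measured 7.77, 7.52 and 7.99 with rat IgG and 7.93, 8.02 and 8.05 with anti-CD25, where only rat IgG 3 overlapped (SE 0.12; limma, adjusted p = 0.75). Mcm5 measured 7.88, 7.85 and 8.15 and then 7.95, 8.05 and 8.23, with rat IgG 3 and anti-CD25 3, the low Xist arrays, as its 2 highest. Its difference was 0.14 within the high Xist arrays and 0.081 between the low Xist arrays. Those of Mcm4 were 0.33 and 0.059. When rat IgG 2 was dropped, 0.12 was left for Mcm4 and 0.061 for Mcm5. For Mcm5, dropping rat IgG 1 left 0.08, dropping anti-CD25 3 left 0.042 and dropping rat IgG 3 gave 0.21.

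Of the 3 genes that load and fire origins, 1 read higher and 2 lower. Cdc6, which loads the MCM helicase, measured 6.57, 6.39 and 6.61 with rat IgG and 6.04, 6.26 and 6.50 with anti-CD25. Anti-CD25 1 was its lowest array, and anti-CD25 3 overlapped the controls. Cdc6 differed by -0.33 within the high Xist arrays and by -0.11 between the low Xist arrays. Its difference of -0.26 (SE 0.12, 95% interval -0.54 to 0.026; limma, adjusted p = 0.75) was the lowest of all members, and dropping anti-CD25 1 brought it to -0.14. Gins1, a subunit of the active helicase, differed by -0.10 with its high value of 6.49 on rat IgG 3. Cdc45, its partner in that helicase, was nearly flat, at 7.39, 7.37 and 7.36 with rat IgG and 7.39, 7.41 and 7.40 with anti-CD25. Its treatments did not overlap before rounding, yet the difference of 0.027 was smaller than its SE of 0.073.

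Among nucleotide supply genes, both reductase subunits had the array order of the mitosis list at its ends. Rrm2, the S phase subunit of ribonucleotide reductase, measured 8.44, 7.96 and 8.71 with rat IgG and 8.59, 8.53 and 8.96 with anti-CD25, a difference of 0.32 (SE 0.19). Rrm1, its large subunit, measured 9.62, 9.23 and 9.57 and then 9.61, 9.63 and 9.84, a difference of 0.22 (SE 0.12). Both were lowest on rat IgG 2 and highest on anti-CD25 3, and the treatments overlapped on the other arrays. Dropping rat IgG 2 left 0.12 for Rrm2 and 0.10 for Rrm1, and dropping anti-CD25 3 left 0.19 and 0.14. For Rrm2, dropping rat IgG 3 gave 0.49. Tyms, thymidylate synthase, differed by 0.032 and was highest on rat IgG 3. Pcna, the sliding clamp, measured 10.25, 10.04 and 10.52 and then 10.48, 10.37 and 10.52, a difference of 0.19 (SE 0.12) with rat IgG 3 level with anti-CD25 3. Pcna differed by 0.28 within the high Xist arrays and by 0.00035 between the low Xist arrays. Dropping rat IgG 2 left 0.071 for Pcna, and dropping rat IgG 3 gave 0.31. The chromatin assembly subunit Chaf1b and the methylation maintenance factor Uhrf1 differed by 0.048 and -0.10.

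Of the regulators of entry into S phase, Ccne2 had the highest difference and E2f1 the lowest. Ccne2, a G1/S cyclin, measured 7.21, 7.17 and 7.68 with rat IgG and 7.68, 7.54 and 7.65 with anti-CD25, a difference of 0.27 (SE 0.13; limma, adjusted p = 0.75). Rat IgG 3 stood with the anti-CD25 arrays, so the difference was 0.42 within the high Xist arrays and -0.03 between the low Xist arrays. Dropping rat IgG 3 gave 0.43 and dropping rat IgG 2 left 0.18. E2f1, the activator of S phase genes, measured 7.67, 7.60 and 7.67 and then 7.73, 7.62 and 7.66, a difference of 0.021 (SE 0.078) that turned to -0.003 when rat IgG 2 was dropped and to -0.0083 when anti-CD25 1 was. Ccnd1, the cyclin of early G1, measured 9.64, 9.53 and 9.90 and then 9.67, 9.68 and 9.96. Its difference of 0.078 (SE 0.12) turned to -0.0019 when rat IgG 2 was dropped and to -0.016 when anti-CD25 3 was, but was 0.18 when rat IgG 3 was, and the low Xist arrays were its 2 highest. Ccne1 and E2f8 differed by 0.10 and 0.12.

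Whether the treatment difference itself depended on Xist class cannot be decided here, because the low Xist class holds 1 array of each treatment. The treatment difference between the low Xist arrays minus that within the high Xist arrays was lowest for Ttk at -0.51, Gins1 at -0.47 and Ccne2 at -0.45.

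Most other genes of the cell cycle also read higher, with 0 passing limma's adjusted test. This too rested on rat IgG 2, since dropping it brought the mean difference from 0.12 to 0.026 for other G2 and M phase genes and from 0.11 to 0.029 for other S phase genes; dropping anti-CD25 3 gave 0.065 and 0.063. Of 26 measured G2 and M phase genes outside the members, 23 were higher with a median of 0.14, against 41.1% of all genes. At an unadjusted limma p under 0.05 there was 1 (3.85%, against 2.3% of all genes in the higher direction). Cdca8, the passenger protein borealin, measured 6.53, 6.16 and 6.51 with rat IgG and 6.89, 6.65 and 6.86 with anti-CD25, without overlap, a difference of 0.40 (SE 0.12; limma, adjusted p = 0.75). G2e3 differed by 0.32. Of 25 further S phase genes, 19 were higher with a median of 0.12 and 1 at an unadjusted p under 0.05 (4%). The anti-CD25 arrays lay entirely above rat IgG in 2 of these (8%), against 4.28% of all genes. Among the G2 and M phase genes they did so in 1 (3.85%). Pold3, a subunit of DNA polymerase delta, differed by 0.34 without overlap and Prim1, a primase subunit, by 0.22. Inhibitors of the cycle were split, with 5 of 10 higher, 0 at an unadjusted p under 0.05, a median of 0.01, and Rbl1 at 0.18 and Cdkn2a at -0.17.

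Cd68, a lysosomal protein of macrophages, was the reference for the macrophage signal of each array. It measured 10.56, 10.20 and 10.71 log2 units with rat IgG and 11.16, 10.60 and 11.08 with anti-CD25. Rat IgG 2 was lowest for Cd68 as it was for mitosis, but anti-CD25 1 was the highest. Its difference of 0.45 (SE 0.17) did not pass (limma, adjusted p = 0.75). It was 0.49 within the high Xist arrays, 0.37 between the low Xist arrays and 0.31 without rat IgG 2. All 16 macrophage markers were higher, against 41.1% of all genes and 5346 of 9876 genes above the 50th percentile of intensity. At an unadjusted limma p under 0.05 there were 6 (37.5%, against 2.3% of all genes), and 0 adjusted. Their mean difference was 0.34, and 0.22 without rat IgG 2. It was 0.41 within the high Xist arrays and 0.21 between the low Xist arrays. Between the low Xist arrays only Cd14, Itgam and C1qa read lower, by -0.30, -0.10 and -0.019. Mertk, a receptor for the uptake of dead cells, differed by 0.71 (SE 0.16) without overlap, and Cd53 by 0.47. The dimmest of these markers averaged 7.59, above the array medians, and their summed intensity ran from 18040 to 22952 with rat IgG and from 21900 to 29986 with anti-CD25. Of these markers 12 were highest on anti-CD25 1, against 1 of 27 mitosis members, 3 of 20 replication members and 11.5% of all genes. This count too is a description.

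Across the arrays, r with Cd68 was mostly higher for mitosis than for replication members. The Pearson r of a gene with Cd68 over the 6 arrays had a median of 0.84 for mitosis members (0.35 to 0.96), 0.63 for replication members (-0.42 to 0.86) and -0.17 for all genes. Medians of Spearman's rho were 0.77, 0.57 and -0.20. Relative to the mean of each treatment, the medians of r were 0.81, 0.61 and -0.08. Dropping rat IgG 2 gave 0.66 for mitosis and 0.30 for replication, and dropping anti-CD25 1 gave 0.96 and 0.82. All genes share the same 6 arrays, so the r values of members are not independent of each other. Relative to the mean of arrays with like Xist, the medians of r were 0.81 for mitosis and 0.64 for replication. The classes hold 4 and 2 arrays, too few for an r of their own. Among genes above the 50th percentile of intensity, the median r over the 6 arrays was 0.84 for mitosis, 0.72 for replication and 0.01 for all.

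**Figure D4:**
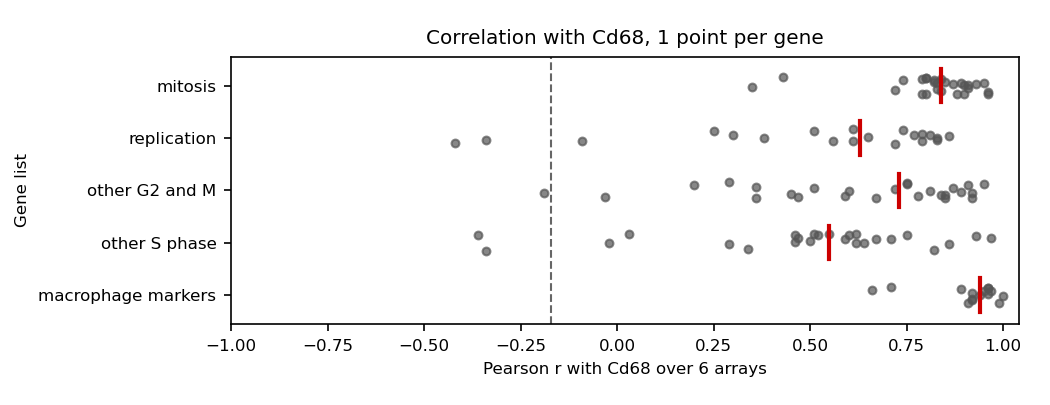
Each point is a gene's Pearson r with Cd68 over the 6 arrays, by list, with points spread vertically only to be seen; red bars are list medians and the dashed line is the median of all genes, -0.17. Mitosis members centre on 0.84 and replication members on 0.63, with Uhrf1, Cdc6 and Gins1 below 0.

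No gene passed the exact permutation test of r after adjustment over the 19751 genes other than Cd68 (0%), where the smallest p that 720 pairings can give is 0.00139. At an unadjusted exact p under 0.05 there were 15 of 27 mitosis members and 3 of 20 replication members, against 8.39% of all genes. For Cenpe, r was 0.96 (exact two-sided permutation p = 0.00417, adjusted p = 0.411) and rho 0.94 (exact p = 0.0167, adjusted p = 0.55). Leaving out rat IgG 2 and anti-CD25 1, the arrays farthest from the median of Cd68, gave r = 0.99 over the remaining 4 arrays, a check on those arrays rather than an estimate. For Mki67, r was 0.83 (exact permutation p = 0.0528, adjusted p = 0.583), rho was 0.54 (exact p = 0.297, adjusted p = 0.757), and r without those arrays was 0.89.

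Replication genes ranged more widely in the same comparison. For Pcna, r was 0.86 (exact permutation p = 0.0236, adjusted p = 0.505), rho was 0.83 (exact p = 0.0583, adjusted p = 0.631), and r without those arrays was 0.74. For Mcm5, r was 0.56 (exact permutation p = 0.247, adjusted p = 0.77), rho was 0.66 (exact p = 0.175, adjusted p = 0.713), and r without those arrays was 0.83. On anti-CD25 1, where Cd68 was highest, Mcm5 stood below both other anti-CD25 arrays. Uhrf1, Cdc6 and Gins1 had r of -0.42, -0.34 and -0.09, with exact permutation p of 0.411, 0.521 and 0.879.

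**Figure D5:**
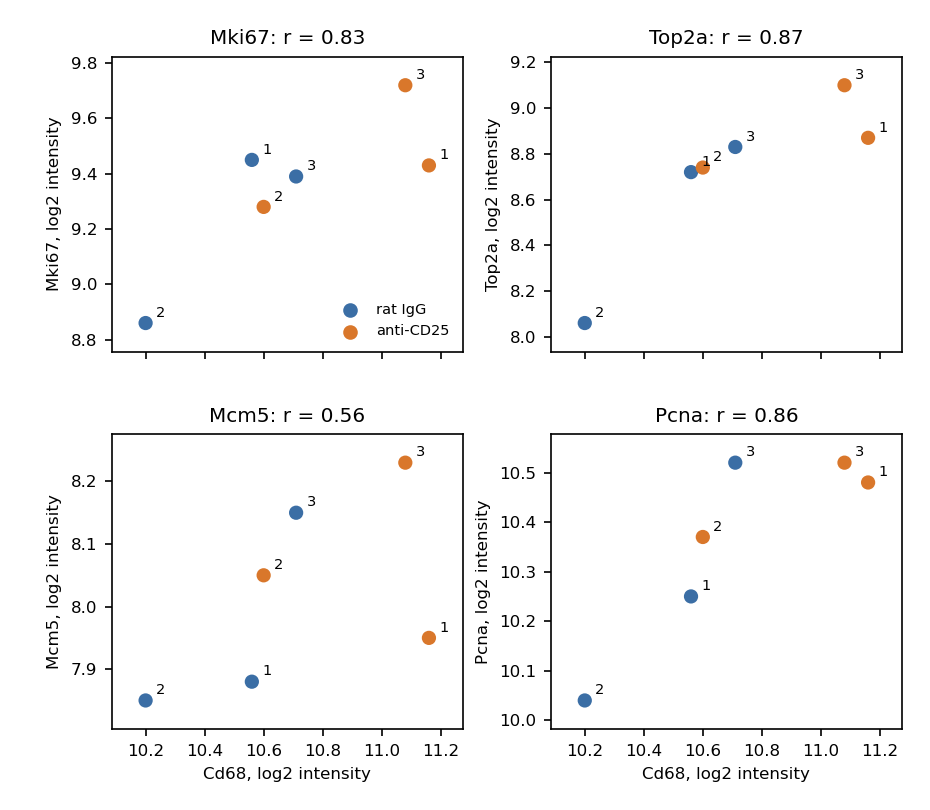
Each panel sets 1 member's log2 intensity against that of Cd68, 1 point per array numbered by replicate, blue for rat IgG and orange for anti-CD25. Mki67 and Top2a (r of 0.83 and 0.87) and Pcna (0.86) run with Cd68, while Mcm5 (0.56) is lower on anti-CD25 1 than on the other anti-CD25 arrays.

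With the level of Cd68 in the model, the treatment difference of both lists turned below 0. The mitosis mean became -0.073, with 5 of 27 members higher, and the replication mean -0.068, with 6 of 20 higher. Over all genes 9399 of 19752 read higher in this fit. At an unadjusted p under 0.05 limma then gave 0 members of either list, against 2.24% of all genes. Cd68 itself read 0.45 higher with anti-CD25, with overlap and without passing limma (adjusted p = 0.75). In this fit the treatment and the macrophage level therefore cannot be told apart.

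Mean differences of the markers of other cells were below 0 in 5 of 5 lists, from -0.13 for satellite cells to -0.012 for stroma, while 11631 of all 19752 genes read lower. Satellite cell and myoblast markers were lower in 7 of 9 cases, with summed intensity from 7956 to 10294 with rat IgG and 7321 to 8852 with anti-CD25, and a median r with Cd68 of 0.07. Myh8 and Myh3, myosins of regrowing fibres, differed by -0.27 and -0.36. Endothelial markers were lower in 6 of 8 cases (median -0.026, with Kdr at -0.27 and Cldn5 at -0.24), and stromal markers in 3 of 7 (median 0.00097, with Pi16 at -0.16 and Dpt at 0.057). T cell markers were lower in 6 of 8 cases, with Cd2 at 0.16 and Cd8a at -0.12, and muscle fibre markers in 7 of 9, with Mb at -0.11 and Pygm at -0.069. In these lists 0 genes passed limma's adjusted test and 0 had an unadjusted p under 0.05. The part of these cells in the members' differences was not tested.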

How the data were processed

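Total RNA from 6 muscle samples was measured on Affymetrix arrays after biotin labelling. The authors deposited 1 table of intensity values for 24922 probe sets, made with RMA in Affymetrix Power Tools per the submitters' processing notes (no version recorded). The values are linear, so log2 was taken with no pseudocount. The platform table names 21425 probe sets by 1 symbol, 1399 by several (not used) and 2098 not at all; the brightest probe set stood for a gene (19752 genes). Symbols were checked by Entrez identifier against RefSeq's GRCm38.p6 gene table (21347 matched, 0 changed).

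Treatments were compared across all genes with limma 3.58.1 in R 4.3.3 (lmFit, eBayes, two-sided, Benjamini-Hochberg, threshold 0.05). Correlations used exact permutation over 720 pairings. The fit and the correlation code were tested on simulated data. The members, gene lists and alternatives were chosen with earlier results of these data known. Per-array values are given for the 5 members of each list with the smallest p and for fixed members; Ndc80, Cdc45, Ttk and Gins1 values, and the short motif sites, were added after values were seen. Other lists are represented by their 2 smallest p. Alternatives were a second quantile normalization, median centring, intensity filters at the 30th and 50th percentiles, the mean of probe sets, a variance trend with robust fitting, Xist class or replicate number as a block, Cd68 as a covariate, each array left out, and a narrower promoter window.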

Additional observations from a re-analysis of the deposited data

How the results depend on the processing

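With limma's adjusted test 0 members passed under any alternative; over all genes 0 passed except without rat IgG 3, where 7 did. With 1 array left out the count over all genes ran from 0 to 7. The mitosis mean difference ran from 0.084 to 0.33 with 1 array left out, the replication mean from -0.0071 to 0.16 and their difference from 0.091 to 0.23. With Cd68 as a covariate these became -0.073, -0.068 and -0.0058. That covariate also turned Cenpe to -0.04, Rrm2 to -0.057, Mki67 to -0.11, Top2a to -0.04, Cdk1 to -0.08, Pcna to -0.045, E2f1 to -0.047 and Ccnd1 to -0.10. With 1 array left out E2f1 ran from -0.0083 to 0.045, Ccnd1 from -0.016 to 0.18, Mki67 from 0.058 to 0.35, Cdk1 from 0.091 to 0.39, Top2a from 0.13 to 0.51, Rrm2 from 0.12 to 0.49, Pcna from 0.071 to 0.31 and Cenpe from 0.17 to 0.47. The cause was not tested. Of 283 differences of named genes under alternatives, 271 kept their direction and 12 turned. The median r with Cd68 ran from 0.66 to 0.96 for mitosis and from 0.30 to 0.82 for replication with 1 array left out. In the narrower promoter window, which can only hold fewer matches, E2F motifs were found for 0 mitosis and 3 replication genes.

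Whether the replicate number in the titles pairs the samples cannot be settled from these values. Same-numbered arrays fell in the same Xist class. Deviations of same-numbered arrays from their treatment mean correlated across genes at 0.03, -0.01 and -0.17. With the replicate number as a block the mitosis mean was 0.24 and the replication mean 0.079, 0 genes passed adjusted, and at an unadjusted p under 0.05 limma gave 15 mitosis members and 1 replication member instead of 2 and 0, with 5.59% of all genes at that threshold against 6.28% without the block. Xist class as a block gave 6 and 3 (6.14% of all genes), and the high Xist arrays alone gave 2 and 5 (20.7%). The dimmest members were Gins1 at percentile 29.7 of intensity, Ttk at 32.4 and Cdc6 at 35.3; signal over background was not measured.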
